A study of Mus musculus with 9 samples.

Results

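The genes described here are those of lipoprotein lipase and of the proteins that take up and carry its products: *Lpl*, *Lmf1*, *Lmf2*, *Angptl4*, *Cd36*, *Fabp3*, *Fabp4*, *Fabp5*, *Slc27a1* and *Slc27a4*. They were chosen by symbol, and all 10 were among the 54432 genes of the count table. Their RNA was measured by RNAseq in RAW264.7, a macrophage-like line of mouse cells, in 3 groups of 3 libraries. Control cells were left untreated, VLDL-sized cells received 1 mM emulsion particles of the size of very low density lipoproteins, and CHYL-sized cells received 1 mM emulsion particles of the size of chylomicrons. Exposure lasted 6 hours, and the line was cultured in medium with fetal calf serum. The methods describe biological triplicates and pooling of a condition's samples within an experiment, so a library stands for a pool and p-values measure the spread between 3 such pools.

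Lipoprotein lipase (LPL) splits the triglycerides of VLDL and chylomicrons into fatty acids that cells can import, and macrophages are known to make and secrete it. LMF1 is needed in the endoplasmic reticulum for the lipase to fold into its active form, and ANGPTL4 inactivates the secreted enzyme. CD36 binds long-chain fatty acids and oxidized lipoproteins at the cell surface, transport proteins of the SLC27 family couple import to the formation of acyl-CoA, and FABP proteins bind fatty acids in the cytosol.

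Library totals ranged from 22393893 to 22856792 estimated counts. A gene was tested when it had more than 10 counts in at least 3 libraries, which held for 12637 genes and for 10 of the 10 described here. *Cd36* passed by the smallest possible margin, through 1 VLDL-sized and 2 CHYL-sized libraries and no control library. Levels are given in cpm, which are counts scaled to a common library total with TMM factors (trimmed mean of M-values), and log2 fold changes come from limma with voom weights.

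Markers of cell types were compared with the label of the line. The 10 macrophage markers summed to 6946, 7032 and 7026 cpm in the control libraries, 6398, 6395 and 6197 cpm in the VLDL-sized libraries and 6429, 6587 and 6379 cpm in the CHYL-sized libraries. *Lyz2* was the most abundant of them, at 2429 cpm ± 79.6 (SD, n = 3) in control. The sum was thus lower with both particles, and its part in the values below was not tested; fewer cells of a type and less RNA per cell cannot be told apart in bulk RNA. Of adipocytes, which are rich in *Lpl*, *Cd36* and *Fabp4*, the markers were at or near 0: each of the 7 adipocyte markers had at most 5 counts in any library, *Adipoq*, *Lep*, *Cidec* and *Cfd* had no count, and the list summed to at most 0.0913 cpm in a library, with *Plin1* the most abundant (0.0603 cpm ± 0.0269, SD, n = 3, VLDL-sized). The 7 fibroblast markers summed to 1.59 to 2.61 cpm, mostly *Pdgfra*, with *Col3a1* and *Dcn* at 0. The 7 endothelial markers summed to 6.26 to 9.8 cpm, mostly *Vwf*, with *Tek*, *Tie1* and *Gpihbp1* at 0.

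The libraries numbered 3 stood apart in each group. On the second principal component of log2 cpm (14.4% of the variance) they lay at -20.4, -17.1 and -17.3 for control, VLDL-sized and CHYL-sized, while the other libraries lay between 5.4 and 13. The first component (49.1%) separated control from particle-treated cells. For the 10 genes, calls that change without the libraries numbered 3 are given both ways. For other genes only the number called without these libraries is given.

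Per kilobase of transcript, the scale on which levels of different genes can be compared, the genes spanned a wide range in control cells. *Lpl* was the highest, at 213 cpm per kb ± 1.88 (SD, n = 3), above 96.5% of the genes tested. *Slc27a1* (144 ± 9.51) and *Fabp5* (142 ± 6.42) followed, and these neighbours did not differ beyond their spread. *Lmf2* came next at 61 ± 4.01 cpm per kb. *Lmf1* (15.2 ± 1.7), *Slc27a4* (11.6 ± 0.689) and *Fabp4* (9.38 ± 3.53) lay near the median gene, at 11.4 cpm per kb; the libraries of *Slc27a4* and *Fabp4* overlapped. *Angptl4* (3.39 ± 0.202) and *Fabp3* (2.38 ± 0.368) were lower, and *Cd36* was the lowest at 0.0452 ± 0.0358 cpm per kb, above only 0.174% of the genes tested. The order of the means was the same in VLDL-sized and CHYL-sized cells, but in CHYL-sized cells *Slc27a1* and *Fabp5* no longer overlapped, whereas *Angptl4* and *Fabp3* did. With the longest annotated transcript as the length, *Lmf1* fell behind *Slc27a4* and *Fabp4* behind *Angptl4* and *Fabp3*, so the order in the lower range depends on the length used. Further up, the place of *Fabp5* may depend on how reads were divided between it and the pseudogene *Gm6166* (below), which was not tested. Over its length of 0.99 kb, *Fabp5* averaged 140 cpm in control alone and 204 cpm with *Gm6166* added.

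**Figure D1:**
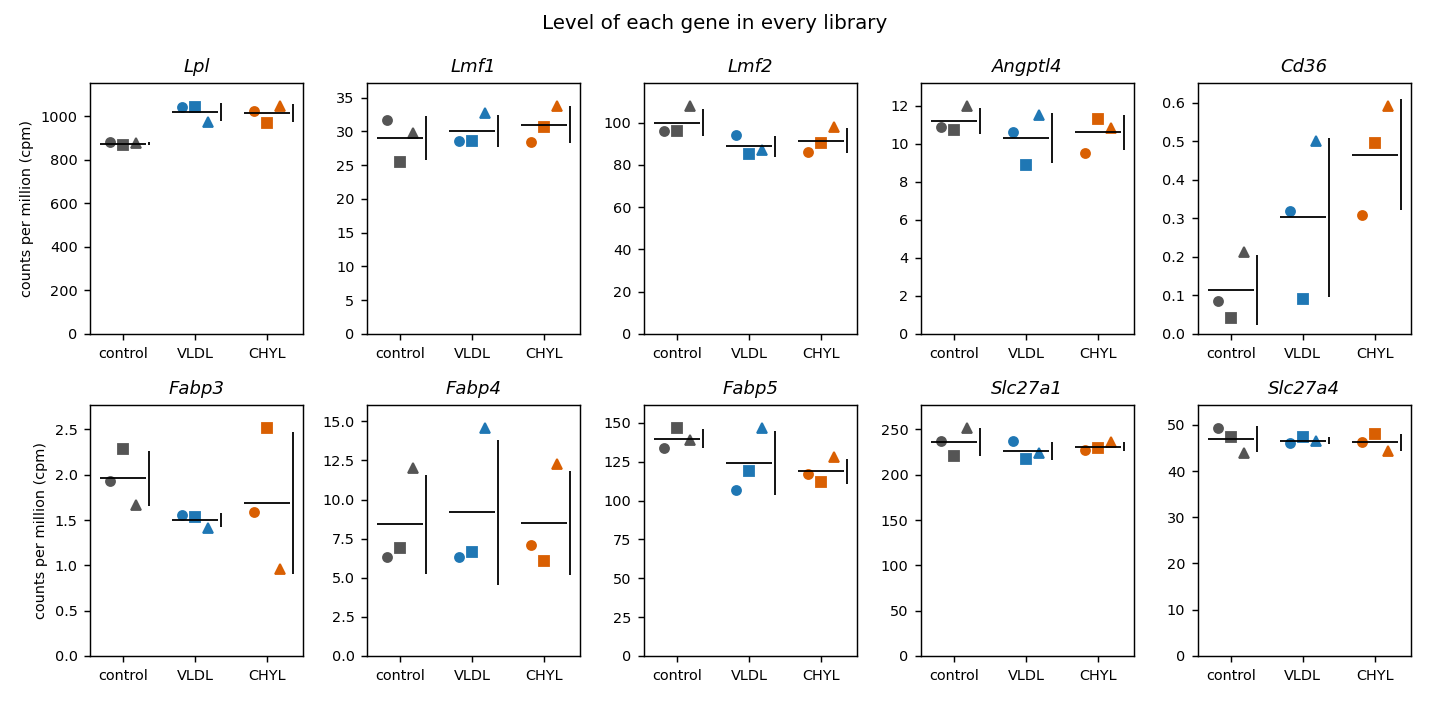
Level of each of the 10 genes in cpm (vertical axis, from 0, with its own scale in each panel) in the 3 control, 3 VLDL-sized and 3 CHYL-sized libraries. Circles, squares and triangles are the libraries numbered 1, 2 and 3, horizontal lines the means and vertical lines ± 1 SD; *Lpl* is the only gene above its control libraries with both particles, *Cd36* lies under 1 cpm throughout, and *Fabp4* is highest in library 3 of each group.

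To determine which of these genes responded to the particles, each group was compared with control. With VLDL-sized particles 1 of the 10 genes, *Lpl*, passed an adjusted p of 0.05, against 35.6% of all genes tested, and it was higher (17.8% of all genes were called higher and 17.9% lower). Treated and control libraries were fully separated for 3 of the 10, against 47.4% of all genes and the 10% that chance gives with 3 against 3. With CHYL-sized particles 2 of the 10, *Lpl* and *Cd36*, passed, against 25.7% of all genes, and both were higher (12.7% of all genes higher, 13% lower). Libraries were fully separated for 3 of the 10, *Cd36* among them, against 41.7%. Since *Cd36* met the filter only through treated libraries, its call, direction and separation are no support for a response of the group of genes. In these fits 0 of the 10 were called lower in either comparison, but *Lmf2*, *Fabp5* and *Slc27a1* were called lower under some alternatives. The median log2 fold change of the 10 was -0.03 in both, beside medians of 0 and 0.001 over all genes tested. The comparisons share the control libraries, so their values are set side by side only. With library size only in place of TMM, *Lpl* no longer passed; *Lmf2*, *Fabp5* and *Slc27a1* were called lower with VLDL-sized particles, and *Lmf2* and *Fabp5* lower and *Cd36* higher with CHYL-sized particles. A smaller part of all calls was then higher (1507 of 4819 with VLDL-sized and 1068 of 3582 with CHYL-sized particles, against 2244 of 4500 and 1610 of 3249 with TMM).

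*Lpl* (ENSMUSG00000015568), which encodes the lipase itself, lies on the plus strand of chromosome 8 at 68880491 to 68907448 (GRCm38). Its level was 881, 867 and 878 cpm in control, 1044, 1043 and 972 cpm in VLDL-sized and 1024, 971 and 1049 cpm in CHYL-sized cells. Each of the 6 treated libraries was above each of the 3 control libraries. The treated groups covered the same range. *Lpl* rose by a log2 fold change of 0.22 ± 0.048 (SE, adjusted p = 0.0049) with VLDL-sized and 0.21 ± 0.048 (adjusted p = 0.0084) with CHYL-sized particles, or 1.16-fold in both. The change was ordinary in size, larger in absolute value than that of 52.2% and 58.3% of the genes tested. It also depended in part on the normalization: with library size only, it was 0.13 in both comparisons (adjusted p = 0.06 and 0.063), while the median of all genes moved to -0.094 and -0.079. The estimated counts as deposited, 20484 to 20961 in control against 21367 to 23208 with VLDL-sized and 21566 to 23119 with CHYL-sized particles, did not overlap either. Across the other alternatives, leaving out any library included, *Lpl* passed the threshold.

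The maturation factors were not called. *Lmf1* (ENSMUSG00000002279, chromosome 17, 25579085 to 25662826, plus strand) was at 31.7, 25.4 and 29.8 cpm in control, 28.6, 28.5 and 32.7 cpm in VLDL-sized and 28.4, 30.7 and 33.8 cpm in CHYL-sized cells. The groups overlapped. Its log2 differences were 0.05 (95% interval -0.17 to 0.27, adjusted p = 0.73) and 0.1 (-0.12 to 0.32, adjusted p = 0.51), and these intervals include the values of *Lpl*. Leaving out single libraries moved them between -0.04 (without control library 2) and 0.12 (without control library 1) with VLDL-sized particles, and between 0.01 and 0.17 (without the same libraries) with CHYL-sized particles, and *Lmf1* was not called in any of these fits. *Lmf2* (ENSMUSG00000022614, chromosome 15, 89351004 to 89355659, minus strand) encodes a relative of LMF1 and was at 96.1, 96.2 and 108 cpm in control, 94.2, 85.2 and 86.8 cpm in VLDL-sized and 86, 90.5 and 98 cpm in CHYL-sized cells. The VLDL-sized libraries all lay below the control libraries, the nearest of them by a narrow margin, whereas CHYL-sized and control libraries overlapped. The log2 difference was -0.17 (-0.32 to -0.02, adjusted p = 0.072) with VLDL-sized and -0.13 (-0.28 to 0.02, adjusted p = 0.2) with CHYL-sized particles. With the replicate number as a block over all 9 libraries, *Lmf2* passed the threshold with VLDL-sized particles at the same log2 fold change of -0.17 (adjusted p = 0.024). That made 2 of the 10 genes called, beside 6058 of all 12637 genes in that fit. The block also covered the CHYL-sized libraries, whose numbers were not taken as paired. With library size only, *Lmf2* passed in both comparisons (log2 fold change -0.27, adjusted p = 0.0063, and -0.21, adjusted p = 0.027). Other alternatives made the difference smaller: without library 3 of each group it was -0.1 (adjusted p = 0.17) with VLDL-sized particles, and without control library 3 alone it was -0.12 (adjusted p = 0.21) with VLDL-sized and -0.07 (adjusted p = 0.47) with CHYL-sized particles. Over the alternatives the adjusted p of *Lmf2* ran from 0.0063 to 0.21 and from 0.027 to 0.47.

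*Angptl4* (ENSMUSG00000002289, chromosome 17, 33773750 to 33781830, minus strand), the inhibitor of the lipase, is known as a target of PPAR transcription factors that fatty acids activate. It was at 10.9, 10.7 and 12 cpm in control, 10.6, 8.9 and 11.5 cpm in VLDL-sized and 9.52, 11.3 and 10.8 cpm in CHYL-sized cells. The groups overlapped, and no treated library was above the highest control library. The log2 difference was -0.12 (-0.37 to 0.13, adjusted p = 0.44) with VLDL-sized and -0.09 (-0.33 to 0.16, adjusted p = 0.62) with CHYL-sized particles. The upper ends of these intervals correspond to 1.09-fold and 1.12-fold. Single libraries moved these values, to -0.02 without VLDL-sized library 2, -0.2 without VLDL-sized library 3, -0.07 and -0.04 without control library 3, and -0.02 without CHYL-sized library 1. Over all alternatives *Angptl4* ran from -0.22 to -0.02 with VLDL-sized and from -0.17 to -0.02 with CHYL-sized particles, and it was not called in any of them. Its mean was 264.3 estimated counts in control.

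Some other genes of the response to fatty acids rose. Of 21 PPAR receptors and fatty acid responsive targets, 17 were tested. With VLDL-sized particles 9 were higher and 0 lower, beside 17.8% of all genes called higher and 17.9% lower. With CHYL-sized particles 8 were higher and 0 lower, beside 12.7% and 13% of all genes. The other 8 and 9 were not called, and the median log2 fold changes were 0.24 and 0.19. *Plin2*, which coats lipid droplets, was at 363, 349 and 316 cpm in control, 1255, 1224 and 1136 cpm in VLDL-sized and 1050, 1050 and 1005 cpm in CHYL-sized cells, a log2 fold change of 1.82 ± 0.061 (adjusted p = 1.9e-08) and 1.6 ± 0.061 (adjusted p = 5.5e-08). *Cpt1a*, which passes fatty acids on to mitochondrial oxidation, rose by 1.63 ± 0.058 (adjusted p = 2.7e-08) and 1.6 ± 0.058 (adjusted p = 3.8e-08). *Hilpda*, an inhibitor of triglyceride hydrolysis in the cell, rose by 1.58 ± 0.14 (adjusted p = 1.7e-05) and 1.22 ± 0.15 (adjusted p = 0.00019). *Pdk4*, another gene known to respond, had at most 1 count in a library and could not be tested.

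**Figure D2:**
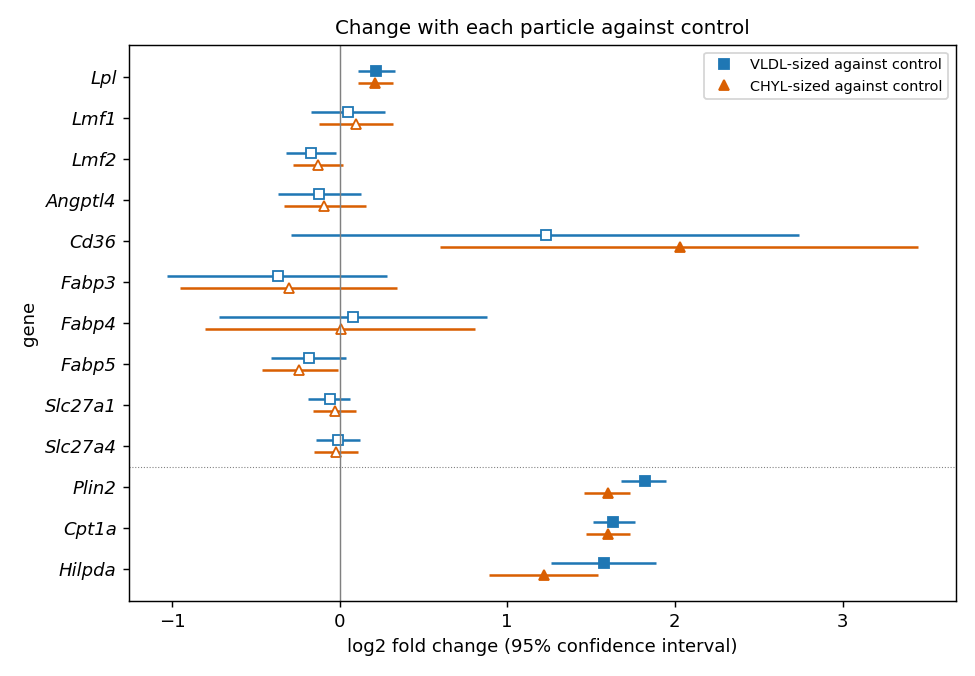
Log2 fold change (horizontal axis) of the 10 genes and of *Plin2*, *Cpt1a* and *Hilpda* (under the dotted line) with VLDL-sized (squares) and CHYL-sized (triangles) particles against control. Lines are 95% confidence intervals and filled symbols mark an adjusted p under 0.05; with TMM *Lpl* lies at 0.22 and 0.21, *Angptl4* at -0.12 and -0.09, and the interval of *Cd36* is the widest of those drawn.

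*Cd36* (ENSMUSG00000002944, chromosome 5, 17781690 to 17888801, minus strand), the fatty acid and scavenger receptor, was barely detected. It had 2, 1 and 5 counts in control, 7, 2 and 11 counts in VLDL-sized and 7, 11 and 13 counts in CHYL-sized cells. The CHYL-sized libraries lay above the control libraries, and the VLDL-sized libraries overlapped with both. Each VLDL-sized library was above the control library of its own number. Summed over libraries, the ratio to control was 2.68 (95% counting interval 1.13 to 7.03) for VLDL-sized and 4.11 (1.85 to 10.4) for CHYL-sized cells, where the intervals cover counting error only. The limma fit gave log2 fold changes of 1.23 (-0.29 to 2.74, adjusted p = 0.19) and 2.03 (0.6 to 3.45, adjusted p = 0.041). With the replicate number as a block over all 9 libraries, the first was 1.26 (adjusted p = 0.068). Since the filter let *Cd36* in only through treated libraries, its call is no support for a response of the group of genes. The CHYL-sized call was lost with DESeq2 (adjusted p = 0.064), with limma-trend (0.051), without a filter (0.074), and without control library 1 (0.12), control library 2 (0.15), CHYL-sized library 2 (0.091) or CHYL-sized library 3 (0.097). The log2 fold change in these fits lay between 1.51 (limma-trend) and 2.04 (DESeq2). With VLDL-sized particles *Cd36* passed when VLDL-sized library 2 was left out (log2 fold change 1.87, adjusted p = 0.034), whereas the value was 0.75 without VLDL-sized library 3 and 0.79 without control library 2; over the alternatives the adjusted p ran from 0.034 to 0.46 with VLDL-sized and from 0.012 to 0.15 with CHYL-sized particles.

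The intracellular carriers differed in level and in how they varied. *Fabp3* (ENSMUSG00000028773, chromosome 4, 130308595 to 130315463, plus strand) was at 1.93, 2.28 and 1.67 cpm in control, 1.55, 1.53 and 1.41 cpm in VLDL-sized and 1.59, 2.52 and 0.958 cpm in CHYL-sized cells. The VLDL-sized libraries were below the control libraries, while the CHYL-sized libraries spanned more than the range of control. At 21 to 56 counts a library the log2 differences had wide intervals, -0.37 (-1.03 to 0.28, adjusted p = 0.36) and -0.3 (-0.95 to 0.34, adjusted p = 0.49). With CHYL-sized particles single libraries moved the difference. It was 0.04 (adjusted p = 0.93) without CHYL-sized library 3 and -0.07 (adjusted p = 0.87) without library 3 of each group. Leaving out CHYL-sized library 2 gave -0.64 (adjusted p = 0.12), and leaving out control library 2 gave -0.19 (adjusted p = 0.74). Of its 31-base words, 50.1% occur in transcripts of 4 other genes, 35.2% in the pseudogene *Fabp3-ps1*, which had no count. Its ends overlap *Zcchc17* and *Gm10570* on the other strand. The counts of *Fabp3* were whole numbers in all 9 libraries (tolerance 0.001), so no split of reads is visible. Its value stays uncertain, since the effect of the shared sequence was not tested.

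*Fabp4* (ENSMUSG00000062515, chromosome 3, 10204088 to 10208576, minus strand), known from adipocytes and activated macrophages, was at 6.31, 6.87 and 12 cpm in control, 6.34, 6.65 and 14.6 cpm in VLDL-sized and 7.09, 6.08 and 12.3 cpm in CHYL-sized cells. Library 3 was the highest of each group, at 1.83, 2.24 and 1.86 times the mean of the other libraries of control, VLDL-sized and CHYL-sized cells. Only 64 of the 12637 genes tested (0.506%) were at least 1.5 times higher in library 3 in each of the 3 groups, and of the 10 genes *Fabp4* was the only such gene. No difference between groups was resolved: the log2 differences were 0.08 (-0.72 to 0.88, adjusted p = 0.89) and 0.01 (-0.8 to 0.81, adjusted p = 0.99). Without library 3 of each group they were -0.02 and 0.

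*Fabp5* (ENSMUSG00000027533, chromosome 3, 10012548 to 10016607, plus strand) lies near *Fabp4* and was the most abundant carrier. It was at 134, 147 and 139 cpm in control, 107, 119 and 147 cpm in VLDL-sized and 117, 112 and 128 cpm in CHYL-sized cells. The CHYL-sized libraries were below the control libraries, and so were the VLDL-sized libraries except number 3, which matched the highest control library. The log2 difference was -0.18 (-0.41 to 0.04, adjusted p = 0.19) with VLDL-sized and -0.24 (-0.46 to -0.01, adjusted p = 0.11) with CHYL-sized particles. Without library 3 of each group both passed the threshold, at -0.31 (adjusted p = 0.001) and -0.29 (adjusted p = 0.0023). In those fits 2 of the 10 genes were called with VLDL-sized particles, beside 5386 of all genes, and 3 of the 10 with CHYL-sized particles, beside 4150 of all genes. Leaving out VLDL-sized library 3 alone gave -0.31 (adjusted p = 0.0087), whereas leaving out VLDL-sized library 1 gave -0.08 (adjusted p = 0.56). With the replicate block over all 9 libraries, the VLDL-sized difference was -0.18 (adjusted p = 0.057). With only the CHYL-sized and control libraries in the fit, *Fabp5* passed at the unchanged -0.24 (adjusted p = 0.025), which also made 3 of the 10 called, beside 3107 of all genes. With library size only they also passed, at -0.28 (adjusted p = 0.043) and -0.32 (adjusted p = 0.031), and over the alternatives the adjusted p ran from 0.001 to 0.56 and from 0.0023 to 0.28.

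The counts of *Fabp5* were not whole numbers in any of the 9 libraries (tolerance 0.001), and its sequence shows a reason for caution. The longest coding exon, at 10014971 to 10015143 on the plus strand of chromosome 3, is shared with the processed pseudogene *Gm6166* at 57484042 to 57484214 on the plus strand of chromosome 9 but for 1 of 173 bases (99.4% identical). The sequences are printed 5′ to 3′, from GENCODE transcripts of GRCm38, with the base that differs in capitals.
Fabp5: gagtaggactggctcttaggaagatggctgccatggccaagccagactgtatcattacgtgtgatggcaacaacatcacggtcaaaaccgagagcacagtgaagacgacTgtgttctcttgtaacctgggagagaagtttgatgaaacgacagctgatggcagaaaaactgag
Gm6166: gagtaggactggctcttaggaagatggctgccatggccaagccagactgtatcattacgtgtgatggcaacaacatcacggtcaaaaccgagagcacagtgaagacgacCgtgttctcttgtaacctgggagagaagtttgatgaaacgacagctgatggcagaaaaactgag
Of the 31-base words of the *Fabp5* transcript, 33.1% occur in 5 other genes, all pseudogenes, and 27.2% in *Gm6166*. How many reads were split between them cannot be seen from the counts. *Gm6166* was assigned 1425.4, 1484.7 and 1618.4 counts in control, 1266.6, 1288.5 and 1395.1 in VLDL-sized and 1292.3, 1415.1 and 1416.6 in CHYL-sized cells. The sum of both genes was 194, 209 and 208 cpm in control, 165, 177 and 210 cpm in VLDL-sized and 174, 175 and 192 cpm in CHYL-sized cells, 0.902 and 0.886 times the control mean. The pattern of library 3 was thus also present in the sum.

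The transporters differed little from control. *Slc27a1* (ENSMUSG00000031808, chromosome 8, 71568882 to 71587302, plus strand) was at 237, 221 and 252 cpm in control, 237, 217 and 224 cpm in VLDL-sized and 227, 230 and 236 cpm in CHYL-sized cells. The groups overlapped. The log2 differences were -0.06 (-0.19 to 0.06, adjusted p = 0.44) and -0.03 (-0.16 to 0.1, adjusted p = 0.74), so a fold change below 0.878 or above 1.05 with VLDL-sized particles lay outside the interval. With library size only the VLDL-sized difference was -0.16 and passed (adjusted p = 0.036). *Slc27a4* (ENSMUSG00000059316, chromosome 2, 29802634 to 29817522, plus strand) was at 49.4, 47.4 and 43.9 cpm in control, 46, 47.4 and 46.5 cpm in VLDL-sized and 46.2, 48.1 and 44.4 cpm in CHYL-sized cells. The treated libraries lay within the range of control, and the log2 differences were -0.01 (-0.14 to 0.12, adjusted p = 0.95) and -0.02 (-0.15 to 0.11, adjusted p = 0.85).

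To determine whether particle size mattered, VLDL-sized cells were compared with CHYL-sized cells. limma called 0 of the 10 genes and 0% of all genes tested; at an unadjusted p under 0.05 there were 0 of the 10 and 813 of 12637 genes. edgeR's quasi-likelihood test also called 0 genes and DESeq2 called 24, with 0 of the 10 among them in either, but DESeq2 gave no adjusted p for *Angptl4*, *Cd36*, *Fabp3* and *Fabp4*, which it could therefore not call. The groups overlapped for each of the 10 genes. For *Lpl* the interval of the log2 difference was -0.1 to 0.11, for *Slc27a1* -0.16 to 0.1 and for *Angptl4* -0.29 to 0.22, whereas for *Cd36* it was -2.04 to 0.44. Without library 3 of each group 232 genes were called, and again 0 of the 10.

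The other genes of each step were few or varied. All 11 other genes of the FABP and SLC27 families were under the filter, and 7 of them had no count in any library, which at this depth allows up to 0.137 cpm (3 counts in the shallowest library). Of 20 genes for folding, regulation and relatives of the lipase, 10 were tested. *Gpihbp1*, which anchors the lipase on capillary endothelium, was among 6 with no count. With VLDL-sized particles 3 were higher and 1 lower (median log2 fold change 0.06; 35.6% of all genes were called), and with CHYL-sized particles 0 were called, against 25.7% of all genes (median -0.03). *Syvn1*, a ubiquitin ligase of protein quality control, was higher by 0.31 ± 0.11 (adjusted p = 0.043) and the chaperone *Canx* by 0.15 ± 0.051 (adjusted p = 0.042) with VLDL-sized particles. With CHYL-sized particles *Syvn1* was at 0.27 (adjusted p = 0.098), with its libraries above those of control, and *Canx* at 0.09 (adjusted p = 0.21). The difference between the particles was 0.05 for both and was not called (adjusted p = 0.99 and 0.93). The other 2 called with VLDL-sized particles, *Sort1* (0.88, adjusted p = 0.016) and *Apoc2*, the cofactor of the lipase (-1.12, adjusted p = 0.013), were named after their values were seen, and neither exceeded 45 counts in a library. With CHYL-sized particles they were at 0.41 (adjusted p = 0.28) and -0.54 (adjusted p = 0.17), and their differences between the particles were not called (adjusted p = 0.79 and 0.81).

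Heparan sulfate proteoglycans hold the lipase at the cell surface. Of 26 genes of these proteoglycans and their synthesis 16 were tested; 2 were higher and 6 lower with VLDL-sized, and 2 higher and 4 lower with CHYL-sized particles, with medians of -0.16 and -0.15, beside the 17.8% and 12.7% of all genes called higher and the 17.9% and 13% called lower. *Ext1*, which polymerizes the chain, rose by 1.15 ± 0.17 (adjusted p = 0.00051) and 1.12 ± 0.17 (adjusted p = 0.00099), and the core protein *Gpc1* by 0.66 ± 0.052 (adjusted p = 6.6e-06) and 0.63 ± 0.052 (adjusted p = 1.5e-05). *Extl3*, which starts the chain, had log2 fold changes of -0.64 ± 0.047 (adjusted p = 4.2e-06) and -0.5 ± 0.047 (adjusted p = 3.6e-05), and the sulfotransferase *Ndst2* of -0.43 ± 0.054 and -0.44 ± 0.054 (adjusted p = 0.00015 and 0.00024). *Ndst1* was lower with VLDL-sized particles only by the threshold (-0.77, adjusted p = 0.028, against -0.39, adjusted p = 0.24), and the difference between particles was not called (-0.38, adjusted p = 0.86).

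Of 14 relatives and partners of CD36 and other carriers of fatty acids and acyl-CoA, 13 were tested; 2 were higher and 3 lower with VLDL-sized, and 2 higher and 2 lower with CHYL-sized particles, with medians of 0.06 and -0.06, beside the 35.6% and 25.7% of all genes called. *Scarb1*, a receptor of the CD36 family, was at 190, 187 and 176 cpm in control, 133, 125 and 139 cpm in VLDL-sized and 128, 130 and 147 cpm in CHYL-sized cells. Its log2 fold change was -0.48 ± 0.066 (adjusted p = 0.00027) and -0.45 ± 0.066 (adjusted p = 0.00064). *Scarb2*, the lysosomal member of that family, rose by 0.25 ± 0.047 (adjusted p = 0.0019) and 0.24 ± 0.047 (adjusted p = 0.0034), and *Acbd3* by 0.33 ± 0.047 (adjusted p = 0.00034) and 0.3 ± 0.047 (adjusted p = 0.001). The kinase *Lyn* had log2 fold changes of -0.6 ± 0.067 (adjusted p = 6.6e-05) and -0.36 ± 0.066 (adjusted p = 0.0029), and the acyl-CoA carrier *Dbi* of -0.14 (adjusted p = 0.048) and -0.09 (adjusted p = 0.22).

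Across the 9 libraries, the genes whose log2 cpm was most like that of *Lpl*, among genes with a mean of at least 50 counts, were *mt-Nd5* (Pearson r = 0.985), *Rabgef1* (0.983) and *Slc25a37* (0.981). The 9 libraries fall into groups, so that r follows in part the step from control to treated cells and is given as a description. The genes named had the highest r of 10595 genes compared (10596 for *Cd36* and *Fabp3*). Over only 9 libraries, a search of this size can give high values of r by chance. The r to be expected from unrelated genes was not tested, so the names do not show that genes are regulated together. For *Fabp4* the nearest genes were *Mpp6* (0.983), *Havcr2* (0.981) and *Hnrnpa1* (0.979), and for *Fabp5* *Dtd2* (0.96), *Haus7* (0.954) and *Sdha* (0.949). For *Angptl4* they were *Atp5g1* (0.975), *Mrpl17* (0.948) and *Cep57l1* (0.943), for *Lmf1* *Gm14681* (0.908), *1110065P20Rik* (0.904) and *Gtpbp6* (0.903), and for *Lmf2* *Nr2f1* (0.954), *Selplg* (0.95) and *Natd1* (0.947). For *Slc27a1* they were *Ddx55* (0.955), *Csf2ra* (0.926) and *Rps6kb2* (0.921), and for *Slc27a4* *Msra* (0.942), *Fam161a* (0.941) and *Ndufa3* (0.93). *Fabp3* was nearest to *Mageh1* (0.946), *Coq9* (0.924) and *Spryd3* (0.91), and *Cd36* to *Rpl26* (0.972), *Ap3s2* (0.967) and *Nudt3* (0.962), where the few counts make r uncertain.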

How the data were processed

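The authors deposited an estimated count for every gene, which their processing notes trace to Salmon 0.14.1, transcripts of GRCm38.p6 and tximport. A scaling by length and library size is stated but not visible, since 58.3% of values above 10 were exactly whole (67.3% within 0.001), and the values were read as unscaled. All columns belong to a library.

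Symbols were found for 54346 of 54432 identifiers. Coordinates and lengths (mean over protein-coding transcripts) are from GENCODE M21. Filtered genes were tested with limma 3.58.1 and voom on TMM factors of edgeR 4.0.16 (R 4.3.3), in a single group-means model without a replicate block, and p-values were adjusted by Benjamini-Hochberg over every gene tested. Counts were rounded to whole numbers for edgeR's quasi-likelihood test and DESeq2 1.42.0. Sequence sharing was counted in words of 31 bases. The limma-voom, edgeR and DESeq2 fits of VLDL-sized against control were tried on simulated counts, and the other steps were not.

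Deviations from group means correlated by 0.14, 0.13 and 0.29 across genes between VLDL-sized and control libraries of the same number, each over 0.1, so these were taken as paired, although no source says what a number marks. The values were 0.12, 0.07 and 0.34 for CHYL-sized with control libraries and 0.03, 0.12 and 0.36 for VLDL-sized with CHYL-sized libraries, which were not taken as paired. VLDL-sized library 2 correlated nearly as well with control library 1 (0.12) as with control library 2 (0.13). The replicate block was fitted once to all 9 libraries.

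The members and lists were chosen with earlier results of these data known. Genes named by rule are the 10, the 3 most like each of them, the top gene of each marker list shown, and from each list at most 3 rises and 3 falls of largest log2 fold change among those called with VLDL-sized particles whose higher group averaged 50 counts or more. Other genes are named as marker or list genes at or near 0, as sharing sequence with one of the 10, or, for *Sort1* and *Apoc2*, after their values were seen.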

Additional observations from a re-analysis of the deposited data

How the results depend on the processing

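The log2 fold changes of the 10 genes in 3 comparisons, 30 results, gave 474 values under the alternatives. Of these, 418 kept their direction and their side of the threshold (4 of them, from DESeq2 between the particles, had no adjusted p), 9 kept the direction but no longer passed, 12 kept it and newly passed, and 35 changed sign. None of those that changed sign was called (0, smallest adjusted p 0.52). *Lpl* passed against control in every alternative but library size only, and the edgeR quasi-likelihood test, upper quartile normalization and the fit of only the groups compared left the counts of genes called within 1.5 times. For results that changed, the cause was not tested, except where stated.

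With library size only, 3 of the 10 genes were called with VLDL-sized particles, beside 4819 of all genes. The log2 difference of *Lmf1* with VLDL-sized particles became -0.04, that of *Fabp4* -0.01 with VLDL-sized and -0.08 with CHYL-sized particles, and that of *Lpl* between the particles -0.01.

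With CHYL-sized particles 1 of the 10 genes was called with DESeq2 (beside 3231 of all genes), 1 with limma-trend (3227), 1 without a filter (2797) and 1 with more than 50 counts required (3233), which removes *Cd36* by construction. Between the particles DESeq2 called 24 genes. With the longest annotated transcript as length, 5 of the 10 genes kept their place in the order of levels.

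With the replicate block, 2 of the 10 genes were called with VLDL-sized particles, beside 6058 of all genes. The block gave 4949 genes with CHYL-sized particles, 3 of the 10 among them (*Fabp5* at -0.24, adjusted p 0.021), and 147 between the particles, where the numbers were not taken as paired: of CHYL-sized libraries only 1 and 3 correlated best with the control library of their own number, and of VLDL-sized libraries only 3 with the CHYL-sized library of its number.

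Without replicate 3 in all groups, 2 of the 10 genes were called with VLDL-sized particles, beside 5386 of all genes, and *Fabp4* was at -0.02. With CHYL-sized particles 3 of the 10 were called, beside 4150 of all genes. Between the particles 232 genes were called, and the log2 differences were 0.02 for *Lmf2*, -0.02 for *Fabp4*, -0.02 for *Fabp5* and -0.01 for *Slc27a4*.

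Leaving out a single library, 1 to 2 of the 10 genes were called with VLDL-sized (beside 3488 to 4316 of all genes) and 1 to 2 with CHYL-sized particles (2337 to 3118), and 0 to 1 genes between the particles. With VLDL-sized particles the log2 differences ran from -0.04 to 0.12 for *Lmf1*, -0.31 to 0.37 for *Fabp4* and -0.05 to 0.03 for *Slc27a4*. With CHYL-sized particles they ran from -0.64 to 0.04 for *Fabp3*, -0.29 to 0.29 for *Fabp4*, -0.08 to 0.02 for *Slc27a1* and -0.07 to 0.02 for *Slc27a4*. Between the particles they ran from -0.02 to 0.04 for *Lpl*, -0.11 to 0.02 for *Lmf1*, -0.09 to 0.01 for *Lmf2*, -0.11 to 0.07 for *Angptl4*, -0.42 to 0.27 for *Fabp3*, -0.31 to 0.37 for *Fabp4*, -0.07 to 0.16 for *Fabp5* and -0.01 to 0.04 for *Slc27a4*.

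Depth was lowest for *Cd36* and *Fabp3*, which had at most 13 and 56 counts in a library, so that counting error limits what their values can show. Depth and the number of libraries were not separated for the other genes. Protein, enzyme activity and uptake were not measured by RNAseq.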
